A study of Oryza sativa with 4 samples.

Results

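In chilled rice seedlings, 79 gene identifiers were at least 2-fold higher at 36 h than at 0 h in the chilling-tolerant line DC90 and differed by less than 2-fold in its chilling-sensitive recurrent parent 9311, also called YD6, both on the scale of FPKM + 1. They were chosen from 18783 identifiers that begin with BGIOSGA and reach 5 FPKM in some library, out of 40745 BGIOSGA identifiers and 88509 identifiers of all kinds. FPKM counts fragments relative to gene length and to the depth of the library, and the authors deposited it for each library. A response is log2((FPKM at 36 h + 1)/(FPKM at 0 h + 1)) within a line. A member has a response of at least 1 in DC90 and a response under 1 in size in 9311. In addition, its 2 responses differ by at least 1, and the log2 ratio of the lines at 0 h is under 1 in size. All 4 libraries were thus used to choose the members, so their responses and line ratios are given as descriptions with no test.

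The study sequenced 4 groups: DC90 before chilling (0 h), DC90 after 36 h of chilling, 9311 before chilling and 9311 after 36 h of chilling. DC90 is a chromosome substitution line, in which pieces of chromosome from a donor replace those of the recurrent parent. Every group consisted of whole plants at the 3-leaf stage, and each was sequenced as 1 library made from RNA of 3 replicates pooled in equal amounts. No group therefore has a replicate check, and "higher" and "lower" describe these 4 libraries. Unchilled seedlings at 36 h are not among the groups, so effects of chilling, seedling age and time of day cannot be told apart. In whole plants, more cells of a type and more RNA per cell cannot be told apart either. The library totals recovered from the values ran from 10580163 to 11800685 reads.

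Rice is a plant of warm climates, and cold that stays above freezing disturbs its membranes, photosynthesis and water balance, most severely at the seedling stage. Plants answer cold with waves of transcription that begin with calcium signals and transcription factors of the CBF/DREB family and continue with genes for protective proteins, sugars, lipid remodelling and the removal of reactive oxygen. Indica cultivars as a group tolerate chilling less well than japonica cultivars. BGIOSGA is the prefix of gene models of indica rice. The sources used here pair none of the 79 identifiers with a gene symbol, a function, a position or a sequence, so roles are not given and the members are described by their values. For the same reason the labelled tissue was not checked against marker genes.

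The members were a small remainder of the response in DC90. Of the 18783 identifiers, 2930, or 15.6%, had a response of at least 1 in DC90. In 9311, 2304 of these also had a response of at least 1, and 1 had a response of at most -1. That left 625 identifiers, of which 517 were not kept because their 2 responses differed by less than 1. These 517 had a median response of 1.15 in DC90 and 0.79 in 9311 and so were mostly higher in both lines, on either side of the 2-fold limit. Of the remaining 108, 29 were left out for a line ratio of 2-fold or more before chilling, with DC90 the lower line in 23 and the higher in 6.

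Across the 79 members, the response in DC90 had a median of 1.36 and ran from 1.0 to 3.23. In 9311 the median was 0.08 and the range -0.73 to 0.99. The corresponding medians over all 18783 identifiers were 0.03 and -0.01. The response reached 2, or 4-fold, in 9 members in DC90, while 3.95% of all identifiers passed that level. As the rule asks, the 2 responses differed by at least 1 in all 79, a limit passed by 3.10% of all identifiers. They differed by at least 1.5 in 17 members and by at least 2 in 6, against a background of 0.761% and 0.197%. Since the rule set these limits, nothing is read from the shares.

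**Figure D1:**
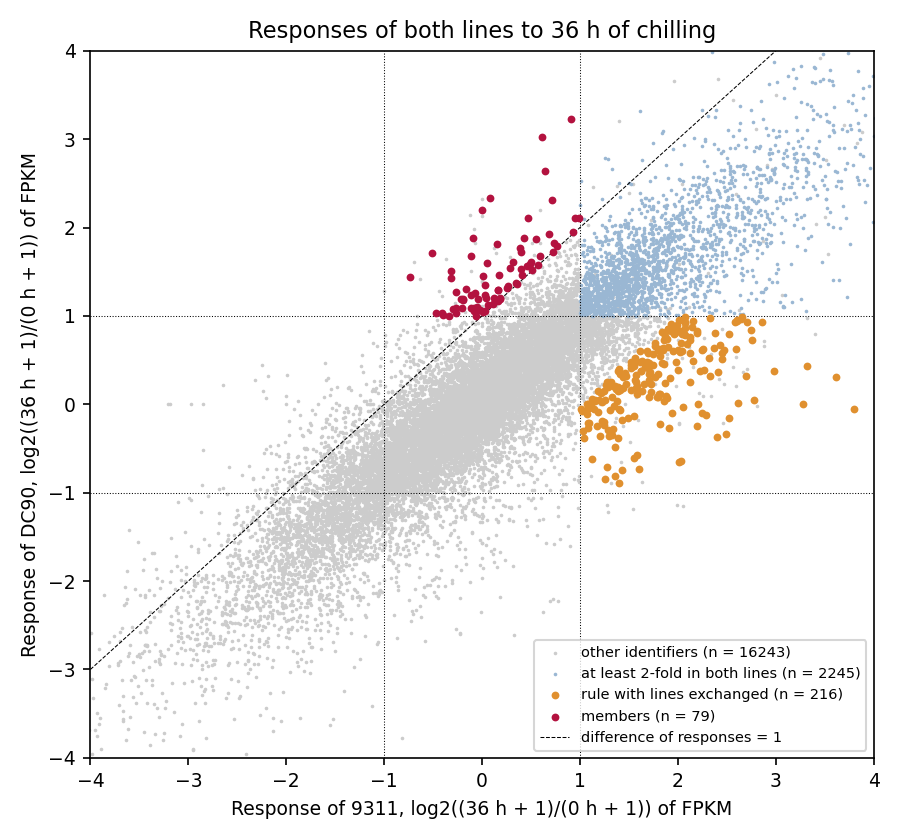
Each point is an identifier with an FPKM of at least 5 in some library, placed by its log2 response to chilling in 9311 (x axis) and in DC90 (y axis); points beyond 4 in size lie outside the axes. The 79 members lie above the dashed line, which marks a difference of responses of 1, between the dotted limits for 9311, and the 216 identifiers chosen with the lines exchanged lie at the lower right.

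The level in DC90 at 0 h was below 1 FPKM in 7 members, or 8.86%, against 1.84% of all identifiers. This was not particular to the members, since it held for 10.7% of 2245 identifiers at least 2-fold higher in both lines. It also held for 22 of the 216 chosen with the lines exchanged. Among the 7 members were 3 of the 6 with the largest difference between the 2 responses. BGIOSGA009260, with a recovered length of 1038 bases, stood at 0.16 FPKM in DC90 and 0.41 in 9311 at 0 h, and at 8.47 in DC90 and 1.15 in 9311 at 36 h. The value in DC90 at 36 h was far above the others, which rest on 2 to 13 reads, and the difference of responses was 2.41. At 0 h BGIOSGA032756 had 0.46 FPKM in 9311 and was listed at 0 in DC90, and at 36 h it reached 8.38 in DC90 and 1.73 in 9311. Set against 3 reads in the DC90 library at 0 h, its level in DC90 was at least 12.2-fold higher after chilling, and the counting interval of the DC90 ratio began at 9.36. In 9311 its response was 0.91, just under the limit, from 2 reads at 0 h and 7 at 36 h, so its place in the set depends on very few reads. BGIOSGA003186 had 0.11 FPKM in DC90 and 0.62 in 9311 at 0 h, then 5.92 in DC90 and 1.53 in 9311. Its ratio of 36 h to 0 h, from 2 reads at 0 h, was 52.0 in DC90 (95% counting interval 14 to 436) and 2.46 in 9311 (1.17 to 5.54), which means that it was higher at 36 h in both lines.

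Some other members with low levels differed less in 9311 by their listed values. The intervals of their 9311 ratios were wide, at 0.25 to 4.70 in BGIOSGA021380 and 0.06 to 6.30 in BGIOSGA037039. A smaller change in 9311 is therefore not shown. BGIOSGA021380 was at 1.19 and 10.1 FPKM in DC90 at 0 h and 36 h, and at 1.96 and 2.12 in 9311. Only the chilled DC90 library stood out, although the values rest on 3, 23, 5 and 5 reads in that order. BGIOSGA010455 was at 0.33 FPKM, from a single read, in DC90 at 0 h and at 5.07, from 14 reads, at 36 h. It was listed at 0 in both 9311 libraries, and at 36 h it was at least 4.81-fold higher in DC90 when 9311 is set at 3 reads. BGIOSGA037039 showed the same order of lines, at 0.72 and 5.37 FPKM in DC90 and at 0.31 and 0.22 in 9311. Its line ratio at 36 h was 24.2 with an interval of 6.34 to 206, and the ratio at 0 h was 2.35 with an interval of 0.54 to 14.1.

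In 2 of the 6 members with the largest differences of responses, 9311 was lower by more than 0.5 on the log2 scale after chilling. BGIOSGA014650 went from 8.88 to 31.3 FPKM in DC90 and from 18.2 to 12.4 in 9311. Before chilling 9311 had the higher level, and after chilling DC90 did. The ratio of 36 h to 0 h was 3.52 (2.74 to 4.56) in DC90 and 0.68 (0.53 to 0.88) in 9311, and these rest on 83 to 264 reads per library. BGIOSGA026776 crossed in the same way, from 2.87 to 9.53 FPKM in DC90 and from 6.65 to 3.60 in 9311, but its ratio of 0.54 in 9311 had an interval of 0.26 to 1.06.

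Of the 79 members, 10 exceeded 100 FPKM in DC90 at 36 h, or 12.7%, close to the 10.8% of all identifiers. A further 46 were between 10 and 100 FPKM there, and 23 were below 10. The share of members whose highest value was under 10 FPKM was 29.1%, against 17.3% of all identifiers. Of the 216 identifiers chosen with the lines exchanged, 60 were under 10 FPKM in the same way. The most abundant was BGIOSGA014059, at 263 FPKM in DC90 and 305 in 9311 at 0 h and at 684 in DC90 and 387 in 9311 at 36 h. It was higher after chilling in both lines, 2.60-fold in DC90 and 1.27-fold in 9311, with counting intervals of 2.46 to 2.74 and 1.2 to 1.34. BGIOSGA029364 went from 222 to 477 FPKM in DC90 and was at 260.1 and 250.0 in 9311. Its ratio in 9311 was 0.96 with an interval of 0.88 to 1.05, and at 0 h the ratio of DC90 to 9311 was 0.85 with an interval of 0.78 to 0.93.

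The next abundant members differed from these in where the lines parted. BGIOSGA036501 was at 188 FPKM in DC90 and at 348 in 9311 at 0 h, and the lines came together at 414 and 375 at 36 h. BGIOSGA029174 was lower in DC90 at 0 h as well, at 113 FPKM against 186 in 9311. At 36 h its lines had crossed and stood further apart, at 260.4 in DC90 and 201 in 9311, a ratio of 1.29 (1.23 to 1.36). In both identifiers 9311 was nearly flat, and most of the difference between lines lay before chilling. BGIOSGA002993 was at 82.8 and 189.5 FPKM in DC90 and at 117 and 102 in 9311, where the ratio of 0.87 had an interval of 0.81 to 0.94. BGIOSGA011601 had the largest response among abundant members, from 31.1 to 158 FPKM in DC90, a 5.08-fold difference, while 9311 went from 61.4 to 101, a 1.65-fold difference with an interval of 1.5 to 1.82.

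**Figure D2:**
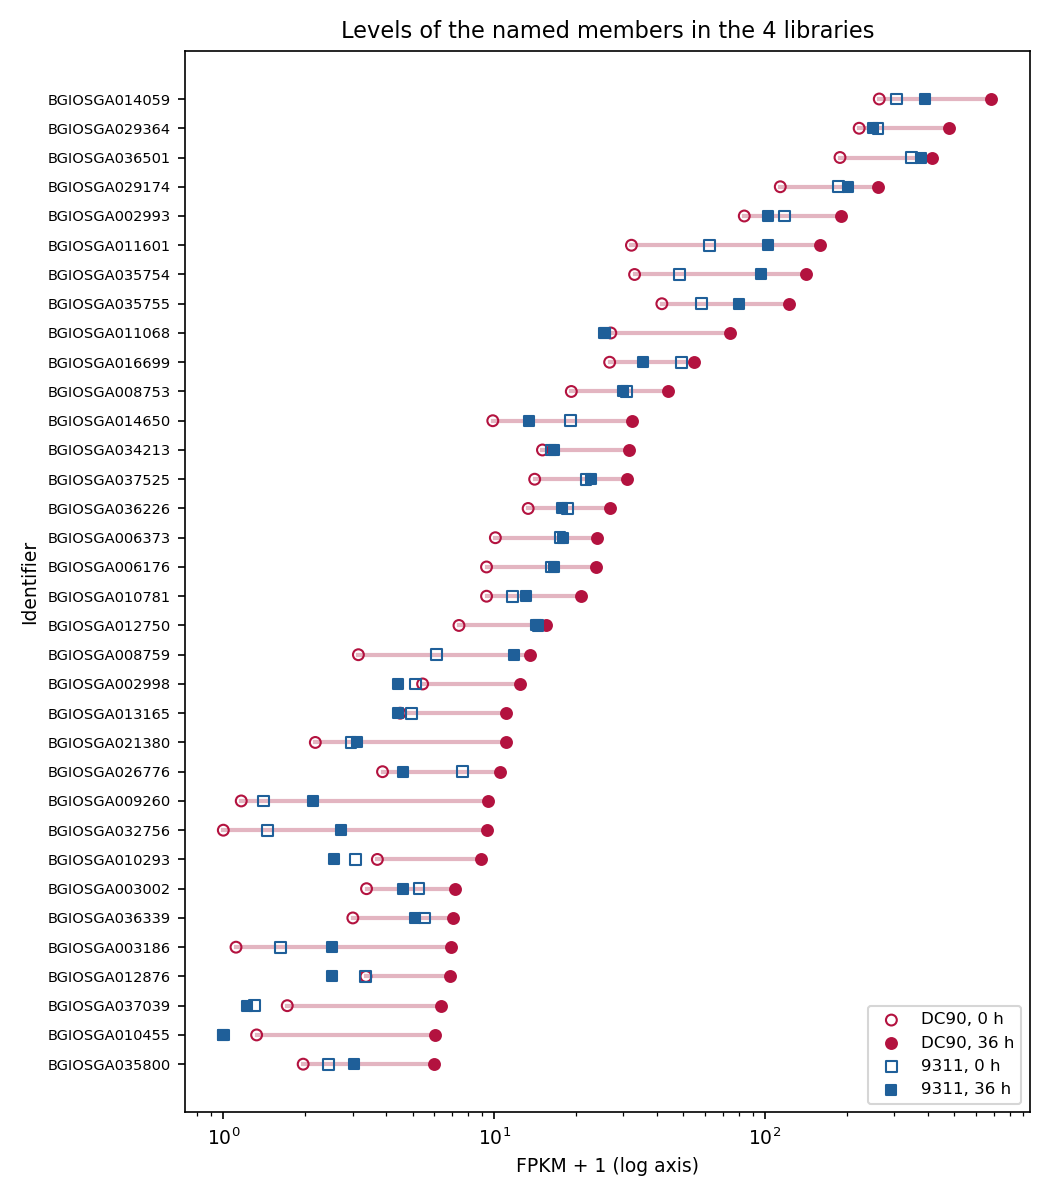
FPKM + 1 on a log axis is plotted for the 34 named members in the 4 libraries, with circles for DC90, squares for 9311, open symbols for 0 h and filled symbols for 36 h; a bar joins both DC90 values. The filled circle lies at the right end in every row, from 5.0 FPKM in BGIOSGA035800 to 684 in BGIOSGA014059.

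The wording "raised in DC90 alone" held for part of the members. The response in 9311 lay within 0.5 of 0 in 62 of the 79, against 37.4% of all identifiers, and within 0.25 of 0 in 37. In 15 members it was at least 0.5, a level passed by 30.9% of all identifiers, and in 2 it was at most -0.5, against 31.7%. It was below 0 in 30 members, against 50.2% of all identifiers. Without the pseudocount of 1, 7 members were at least 2-fold higher at 36 h in 9311 too, against 18.4% of all identifiers. The exact counting interval of the 9311 ratio lay above 1 in 22 members and below 1 in 5, and it included 1 in 51. By a normal approximation the counts were 23 above and 5 below, where all identifiers gave 39.3% and 39.5%. The rule keeps the 9311 response under 1 in size and at least 1 below that in DC90, so nothing is read from the shares. By that choice the set holds identifiers with a larger response in DC90. Most but not all of them were within 0.5 of 0 in 9311.

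The flattest well-measured members in 9311 show the pattern in its plainest form. BGIOSGA011068 was at 26.0 FPKM in DC90 and at 24.5 in 9311 at 0 h, and at 73.0 in DC90 and 24.6 in 9311 at 36 h. The other libraries were thus alike, and chilled DC90 was 2.96-fold above chilled 9311, with an interval of 2.60 to 3.37. BGIOSGA034213 had the same shape at 14.1 and 30.3 FPKM in DC90 and 15.2 and 15.6 in 9311. BGIOSGA006176, at 8.37 and 22.8 FPKM in DC90 and 15.3 and 15.6 in 9311, and BGIOSGA006373, at 9.10 and 22.9 in DC90 and 16.5 and 16.9 in 9311, differed from them at 0 h. At 0 h their DC90 levels were lower, with a ratio to 9311 of 0.55 for both and intervals of 0.46 to 0.65 and 0.43 to 0.70.

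At the other end, 9311 also responded. BGIOSGA035754 went from 32.0 to 141 FPKM in DC90, a 4.40-fold difference, and from 47.4 to 95.3 in 9311, a 2.01-fold difference with an interval of 1.86 to 2.17. Its log2 response in 9311 of 0.99 was the closest to the limit among the members. BGIOSGA008759 was at 2.15 and 12.6 FPKM in DC90 and at 5.10 and 10.8 in 9311. Its 9311 ratio of 2.11 had an interval of 1.45 to 3.13. The lines did not differ beyond counting error at 36 h, with a ratio of 1.17 and an interval of 0.86 to 1.58.

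Before chilling, DC90 was the lower line in most members. The log2 ratio of DC90 to 9311 at 0 h was below 0 in 68 of the 79, against 47.2% of all identifiers, with a median of -0.59 against 0.01. It was at most -0.5 in 44 members, or 55.7%, while 7.31% of all identifiers passed that level. Only 15 members were within 0.25 of 0 at 0 h, where 62.7% of all identifiers lay. After chilling DC90 was the higher line in every member, as the rule requires, with a median log2 ratio of 0.68 and a range from 0.04 to 2.60. The ratio was at least 1 in 26 members and at least 0.5 in 60, against a background of 1.46% and 8.99%. These ratios share libraries with the responses that chose the members: a low DC90 value at 0 h raises the DC90 response and lowers the line ratio at 0 h together, so the shares are a description.

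The difference of responses equals the line ratio at 36 h minus that at 0 h, and the members differed in how it was divided. Over the members, a median of 55.6% of the difference lay at 36 h. The line ratio was larger in size at 36 h than at 0 h in 46 members, or 58.2%, against 56.2% of all identifiers, and smaller in 33. In 11 members the lines were within 0.25 of each other before chilling and DC90 was higher by at least 1 after it, as in BGIOSGA011068, a pattern met by 0.383% of all identifiers. In 19 the order was the reverse, with DC90 lower by at least 0.5 before chilling and the lines within 0.5 of each other after it, as in BGIOSGA036501, against 4.16% of all identifiers. In 25 DC90 was lower by at least 0.5 before and higher by at least 0.5 after chilling, as in BGIOSGA014650, against 0.799%. The rule limits which of these patterns a member can have, so nothing is read from the shares.

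Counting intervals come from the same reads that chose the members and restate the division above. Exact intervals were formed for the members only. By these, DC90 was below 9311 at 0 h and above it at 36 h in 37 members. It was above 9311 at 36 h alone in 27 and below it at 0 h alone in 9. By the normal approximation, 47 were lower at 0 h, 63 were higher at 36 h and 38 were both, where all identifiers gave 18.3%, 25.3% and 5.68%. The rule makes the DC90 library at 36 h the highest of the 4 in every member. DC90 at 0 h was also the lowest in 66, an order of the highest and lowest library that 11.0% of all identifiers had. In 44 of these 66 the 9311 value was higher at 36 h than at 0 h, and in 22 it was lower. The rule sets much of these counts and shares, so nothing is read from them.

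**Figure D3:**
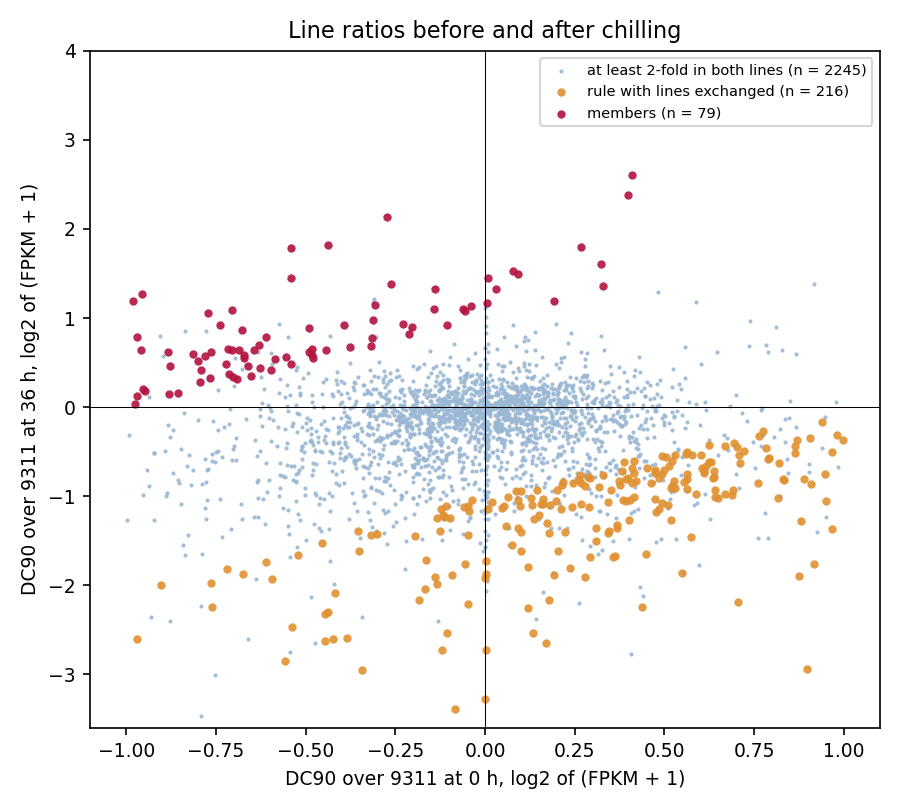
The log2 ratio of DC90 to 9311 is plotted at 0 h (x axis) and at 36 h (y axis) for the 79 members, the 216 identifiers chosen with the lines exchanged and 2245 that were at least 2-fold higher in both lines. The members lie above 0 on the y axis and mostly left of 0 on the x axis, at medians of 0.68 and -0.59; the rules set part of this placement.

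The same rule with the lines exchanged, which asks for a response in 9311 and less than 2-fold in DC90, was met by 216 identifiers, 1.15% of those measured, against 0.421% for the members. The 9311 set was larger than the DC90 set under all 9 alternative settings tried. In that set the roles of the lines were exchanged at 0 h as well, with a median log2 ratio of DC90 to 9311 of 0.34 and 47 of 216 below 0. In the set higher in both lines, 1150 of 2245, or 51.2%, were below 0 and the median was -0.01. The median response of the 9311 set was 1.75 in 9311 and 0.32 in DC90, both larger than the 1.36 and 0.08 of the members in the corresponding lines. Identifiers higher in both lines had medians of 1.62 in DC90 and 1.77 in 9311, so the median response of the members in DC90 was below that of the shared set. The differences between these sets were not tested, since the choice fixes much of them and each group has 1 library.

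At the median, the members were shorter and rested on fewer reads than all identifiers and the set higher in both lines. The set for 9311 was low in both as well. Their median recovered length was 785 bases, against 699 in the set for 9311, 1077 in the set higher in both lines and 1023 over all 18783. The deepest library of a member had a median of 137 reads, from 12 to 5770. The median was 179 in the set for 9311, 333 over all identifiers and 500 in the set higher in both lines. In 10 members some library had fewer than 10 reads, and in 4 no library reached 20. A short length and few reads widen the counting error, and its part in the choice of members was not tested.

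Counting intervals give the precision of the difference of responses. The members were chosen from these same reads, so the counts of intervals restate that choice in part and support nothing. The ratio of the DC90 fold to the 9311 fold, without a pseudocount, had an exact 95% interval above 1 in 71 of the 78 members in which it can be formed, above 1.5 in 50 and above 2 in 18. By a normal approximation the interval was above 1 in 73 members, or 92.4%, against 21.8% of all identifiers. The 7 members whose exact interval reached 1 were BGIOSGA032756, BGIOSGA037039, BGIOSGA007716, BGIOSGA008163, BGIOSGA016391, BGIOSGA018970 and BGIOSGA025506, named here for that interval after their values were seen. Among the narrowest was BGIOSGA036501, at 2.04 with an interval of 1.92 to 2.16. For BGIOSGA014650 the ratio was 5.15 (3.60 to 7.38) and for BGIOSGA009260 it was 18.3, with a wide interval of 2.55 to 201. These intervals leave out the spread between pools of plants, which 1 library per group cannot show.

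**Figure D4:**
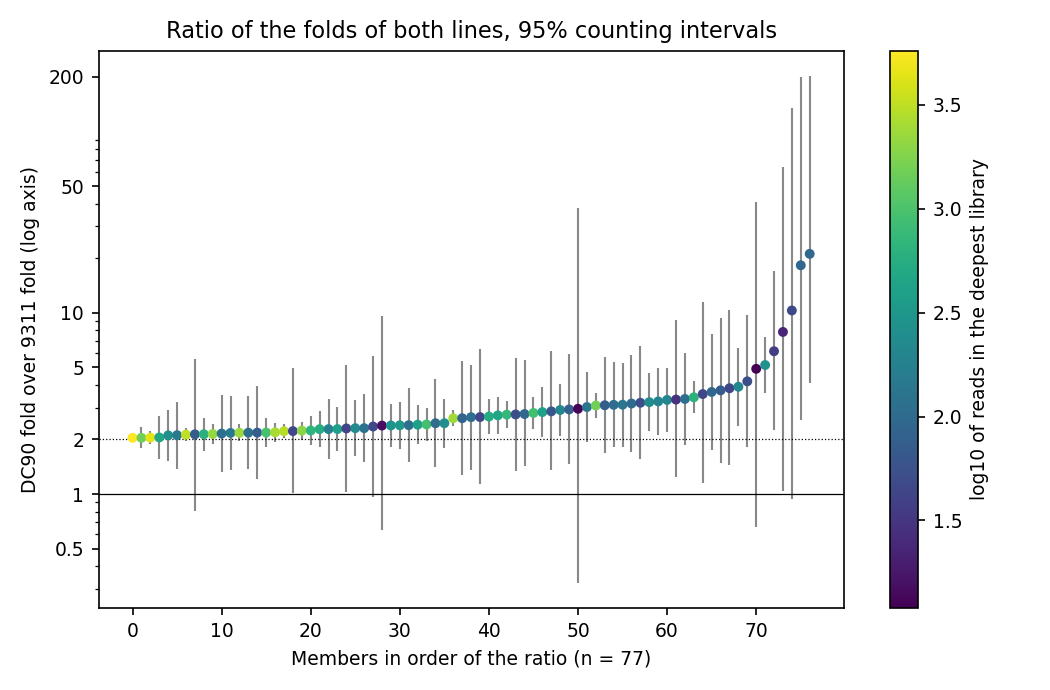
The DC90 fold divided by the 9311 fold is plotted on a log axis for 77 members in order of size, with exact 95% counting intervals as vertical lines; the colour gives the log10 of reads in the deepest library. Members with many reads lie near 2 with short lines, such as BGIOSGA036501 at 2.04, while the highest ratios have long lines, such as BGIOSGA009260 from 2.55 to 201.

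The members ranged in identifier number from 2302 to 37573, and some had close neighbours. Of the 79, 13, or 16.5%, had another member within 20 numbers. The share was 25.9% in the set of 216 for 9311 and 90.6% in the set of 2245 higher in both lines. It grows with the size of a set, so these shares cannot be compared, and clustering was not tested. The closest were BGIOSGA035754 and BGIOSGA035755, which are adjacent in number and similar in pattern. BGIOSGA035755 was at 40.6 and 122 FPKM in DC90 and at 57.5 and 79.1 in 9311, and its difference of responses was 1.11, the same as the 1.11 of its neighbour. The nearest measured identifiers on either side did not share this: BGIOSGA035752 had responses of 1.29 in DC90 and 1.03 in 9311, and BGIOSGA035756 had -1.22 and -1.20. Neighbours were looked up for this pair after the values had been seen.

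BGIOSGA002993, BGIOSGA002998 and BGIOSGA003002 formed a run of 3 members among 6 measured identifiers. BGIOSGA002998 was at 4.44 and 11.4 FPKM in DC90 and at 4.11 and 3.40 in 9311, and BGIOSGA003002 was at 2.38 and 6.17 in DC90 and at 4.28 and 3.59 in 9311. All 3 were higher at 36 h in DC90, with responses of 1.18, 1.19 and 1.09, and had responses of -0.19, -0.22 and -0.20 in 9311. The members BGIOSGA008753 and BGIOSGA008759 had 2 measured identifiers between them and were less alike, since BGIOSGA008753 was flat in 9311, at 29.7 and 28.9 FPKM, with 18.3 and 42.9 in DC90. The other two runs of 3 were looser and mixed. BGIOSGA004154, BGIOSGA004169 and BGIOSGA004179 lay among 16 measured identifiers, with DC90 responses of 1.68, 1.29 and 1.09 and 9311 responses of 0.59, 0.16 and -0.27. The measured identifiers between them had medians of 0.25 in DC90 and 0.15 in 9311. BGIOSGA014629, BGIOSGA014642 and BGIOSGA014650 lay among 14 measured identifiers, and the nonmembers among these had median responses of 0.11 in DC90 and 0.14 in 9311. Their own responses were 1.59, 1.2 and 1.71 in DC90 and 0.49, 0.18 and -0.51 in 9311. These runs were singled out after their values were seen. Adjacent numbers need not mean adjacent genes, since positions were not used here.

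Known from these libraries to hold many line differences are 3 ranges of identifiers, from BGIOSGA010224 to BGIOSGA010354, from BGIOSGA012710 to BGIOSGA013206 and from BGIOSGA036041 to BGIOSGA037534. They held 10 of the 79 members, or 12.7%, and 4.89% of all measured identifiers. The ranges and the members both come from these 4 libraries, so the shares are a description. Members there had a median line ratio of -0.31 at 0 h and 0.89 at 36 h, against -0.60 and 0.68 for the members elsewhere. BGIOSGA010293, in the first range, was at 2.70 and 7.93 FPKM in DC90 and 2.08 and 1.56 in 9311, which made chilled DC90 5.08-fold higher than chilled 9311 (3.65 to 7.23). In the second range, BGIOSGA013165 was at 3.50 and 10.1 FPKM in DC90 and 3.95 and 3.41 in 9311. BGIOSGA012876 lay there too, at 2.36 and 5.88 in DC90 and at 2.34 and 1.52 in 9311. Both had alike levels in the 2 lines before chilling.

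BGIOSGA012750, BGIOSGA036339 and BGIOSGA037525 were lower in DC90 at 0 h. BGIOSGA012750 was at 6.41 FPKM in DC90 and 13.5 in 9311 at 0 h, and at 14.6 and 13.3 at 36 h. In the third range, BGIOSGA036339 was at 2.01 and 6.06 FPKM in DC90 and at 4.53 and 4.12 in 9311. BGIOSGA037525 was at 13.1 and 29.8 FPKM in DC90 and at 20.8 and 21.7 in 9311. In these 3 members the counting interval of the line ratio at 36 h included 1. BGIOSGA037039, BGIOSGA036501, BGIOSGA036226 and BGIOSGA037273, also in the third range, were higher in DC90 at 36 h. The line ratio at 36 h was 1.11 (1.06 to 1.15) in BGIOSGA036501 and 1.52 (1.13 to 2.07) in BGIOSGA036226. It was 2.37 (2.01 to 2.80) in BGIOSGA037273, which is named after its values were seen. At 0 h BGIOSGA036501 and BGIOSGA036226 were lower in DC90 too, with ratios of 0.54 (0.52 to 0.57) and 0.70 (0.49 to 0.99).

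The limits of the rule separate identifiers with nearly equal values. BGIOSGA035800 was kept with a highest value of 5.0 FPKM, while BGIOSGA013966, at 4.96, was 1 of 59 that met the other conditions below that minimum. BGIOSGA036226 was kept with a DC90 response of 1.0, and BGIOSGA013515 was left out at 0.95. BGIOSGA010781 was kept with a difference of responses of 1.0, and BGIOSGA021302 was left out at 0.99. For the line ratio at 0 h, BGIOSGA026776 was kept at -0.98 and BGIOSGA004823 was left out at -1.0. The limit on 9311 kept BGIOSGA035754 at 0.99. It left out BGIOSGA037274, which had 1.62 and 5.36 FPKM in DC90, 1.0 in 9311 at 0 h and 0 in 9311 at 36 h, for a response of -1.0.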

How the data were processed

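The authors deposited 1 table of FPKM values; the submitters' processing notes name HTSeq 0.6.1. Aligner, build and annotation: not given in the sources used here. RNA of 3 replicates per group was pooled before library preparation with 3 µg of RNA, per the labels' protocols. Columns were matched to samples by title. Library totals and whole reads were recovered from the step sizes of the FPKM values, and a length up to 30000 that made all reads whole within 1e-07 was found for 34043 of 34043 identifiers above 0. Because a common factor of reads and length is lost, recovered reads and lengths are the smallest possible and intervals can be too wide. Intervals are exact Clopper-Pearson intervals at 95%, or exact conditional intervals for a ratio of ratios. They cover counting error only, since each group has 1 library. PCR reads are not independent molecules, so intervals can also be too narrow. Bounds for values listed at 0 take 3 reads per library. Recovery and rule were checked on simulated reads drawn with counting error only from a shared mean, with folds added in chilled DC90 alone. Line differences at 0 h, responses in 9311 and spread between pools were not simulated, so the check does not give the rule's error in these data. The reference gene table of 39387 genes held 0 of the identifiers. The members, the rule and the named identifiers' rule were chosen with earlier results of these data known. Named were members with the largest difference of responses, DC90 response, level or line ratio at 36 h, the lowest or flattest in 9311, those listed at 0, the closest in number, those in the 3 number ranges, and those at each of the 5 limits. Alternatives were other pseudocounts, FPKM minimums, scalings, a minimum of reads and a narrower limit for 9311. Python 3.11.15 with scipy 1.17.1 was used.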

Additional observations from a re-analysis of the deposited data

Results flagged for a closer look

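In 5 members the lines went opposite ways, with DC90 higher at 36 h and the whole counting interval of the 9311 ratio below 1. By the normal approximation the 9311 interval was also below 1 in 5 members, or 6.33%, against 39.5% of all identifiers. The rule fixes the higher value in DC90 and limits the response in 9311. The contrast between the lines was not tested, as there is 1 library per line and time. Among the named members, the 5 included BGIOSGA014650 with a difference of responses of 2.22, BGIOSGA016699 with 1.5 and BGIOSGA002993 with 1.38. BGIOSGA016699 was at 25.7 and 53.5 FPKM in DC90 at 0 h and 36 h and at 48.2 and 34.6 in 9311, so that the lines changed places. The other two, BGIOSGA015235 and BGIOSGA033559, are named after their values were seen. BGIOSGA015235 was at 57.2 and 156 FPKM in DC90 and at 113 and 90.3 in 9311. BGIOSGA033559 was at 20.6 and 42.4 FPKM in DC90 and at 36.9 and 27.7 in 9311.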

How the results depend on the processing

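No paired analysis was possible because each group has 1 library. The number of members depended most on low values: it was 79 as reported, 138 with no minimum FPKM and 138 with a minimum of 1, and 34 with a pseudocount of 5, which kept 27 of the 79. The set for 9311 held 216 identifiers as reported, 329 with no minimum and 329 with a minimum of 1, and 135 with a limit of 0.5 for the other line. With that limit the median DC90 response of the members was 1.25, because members with a response in 9311 were left out. Other settings gave 56 to 97 members, and 19 of the 79 were kept under all 8 alternatives other than that narrower limit. Rescaling to equal FPKM sums moved the median DC90 response of all identifiers from 0.03 to 0.15 and kept 72 of the 79. Median-of-ratios size factors, which scale each library by its median ratio to the mean of the 4 libraries, kept 56 of the 79. Under these factors BGIOSGA014059, BGIOSGA036501 and BGIOSGA034213 fell out of the set, with differences of responses of 0.96, 0.95 and 0.95. DC90 was the lower line at 0 h in 79.0% to 91.1% of members under all 9 alternatives. The pseudocounts and scalings, 4 settings, change a member's difference of responses. For the 32 named members with a finite counting interval, the interval was first shifted to the difference found with a pseudocount of 1. Of the recomputed values, 128 of 128 stayed within these shifted intervals. Not all stay within the intervals of the ratio of folds without a pseudocount. For BGIOSGA003186 that interval began at a ratio of 4.10, while the log2 difference with a pseudocount of 5 was 0.88. BGIOSGA032756 and BGIOSGA010455 have no finite interval, and 0 of the 136 values of all 34 changed sign. The members were chosen for a difference of at least 1, so a kept sign was nearly fixed by the choice and supports nothing. With a pseudocount of 5 some named differences fell below 1, as in BGIOSGA003002 at 0.71, BGIOSGA012876 at 0.73, BGIOSGA008759 at 0.65 and BGIOSGA035800 at 0.62. Others stayed above 1, as in BGIOSGA014650 at 1.80.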

Other observations

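The 19 members kept under the 8 alternatives include BGIOSGA011068, BGIOSGA016343 and BGIOSGA008727, which had nearly equal levels in both lines before chilling and are named after their values were seen. Most of the 19 were lower in DC90 at 0 h. The log2 line ratio there was -0.80 in BGIOSGA006176, -0.77 in BGIOSGA035420 and -0.74 in BGIOSGA024038. BGIOSGA016343 was at 27.7 and 65.0 FPKM in DC90 at 0 h and 36 h and at 29.0 and 29.8 in 9311. BGIOSGA008727 was at 38.2 and 82.0 FPKM in DC90 and at 38.0 and 35.8 in 9311. In both, chilled DC90 alone stood apart from the other libraries. Identifiers that begin with EPlOING were outside the rule. Of 1471 with an FPKM of at least 5 in some library, 74 met the same limits and 62 met them with the lines exchanged. The deepest library of the 74 had a median of 8 reads, and 12 of them had at least 20 reads in some library.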
